A study of Rattus norvegicus with 399 samples.

Results

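Bnip3, Adm, Ddit4, Ndrg1 and Apln are 5 genes named in textbooks as induced by low oxygen, and their transcripts were followed across all tissues and exposures of a concentration series in rats. They account for 5 of 2603 gene symbols on the panel and for 5 of its 2654 probes, 1 probe each. The genes were chosen by their measured changes at the highest concentrations, so values there describe the choice and carry no test, set against the 0 ppm controls. Rats at the lower concentrations did not enter the choice, but their changes are measured against the same controls and so are not independent of it. Female Sprague-Dawley rats, 9 weeks old, received 1,2-dichlorobenzene (1,2-DCB, chlorines on neighbouring carbons) at 1, 10, 30, 100, 250 or 500 ppm or 1,4-dichlorobenzene (1,4-DCB, chlorines opposite each other) at 1, 10, 50, 150, 400 or 800 ppm. Each compound had its own control rats at 0 ppm, and on study day 5 the heart, the kidney, the liver, the lung and the ovary were collected. The route and daily hours of exposure are not stated in the sources at hand, and no group was exposed to low oxygen as far as the labels say. The same animal gave all 5 tissues. Controls numbered 10 per compound and tissue (9 in 1,2-DCB kidney, 8 in 1,4-DCB lung) and exposed groups held 5 rats. The smaller exposed groups were 1,2-DCB lung at 500 ppm, 1,4-DCB kidney at 1 ppm and 1,4-DCB lung at 1, 10 and 150 ppm with 4 rats, and 1,4-DCB lung at 400 ppm with 3.

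When oxygen is scarce, the transcription factors HIF-1 and HIF-2 escape degradation, enter the nucleus and bind a short core motif near genes for glycolysis, blood vessel growth, iron handling and mitochondrial turnover. Bnip3 encodes a mitochondrial outer membrane protein that recruits the autophagy machinery to mitochondria. Ddit4 (REDD1) restrains the growth kinase complex mTORC1, Ndrg1 is a cytoplasmic protein of stress responses and differentiation that is abundant in kidney epithelium, and Adm and Apln encode the secreted vasoactive peptides adrenomedullin and apelin. Other signals reach the same genes: glucocorticoids and the stress factor ATF4 act on Ddit4, and fasting on Bnip3.

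RefSeq promoter windows of the GRCr8 assembly, reaching from 250 bases before to 50 bases after the start site, were matched for Bnip3, Adm, Ddit4 and Apln. The HIF core motif was searched as ACGTG and GCGTG on both strands, and matches are in capitals below. The windows of Bnip3 and Ddit4 are printed because only these of the 4 held a match. The Bnip3 window lies at chr1:203154913-203155212 on the minus strand and the Ddit4 window at chr20:28436988-28437287 on the minus strand.
Bnip3: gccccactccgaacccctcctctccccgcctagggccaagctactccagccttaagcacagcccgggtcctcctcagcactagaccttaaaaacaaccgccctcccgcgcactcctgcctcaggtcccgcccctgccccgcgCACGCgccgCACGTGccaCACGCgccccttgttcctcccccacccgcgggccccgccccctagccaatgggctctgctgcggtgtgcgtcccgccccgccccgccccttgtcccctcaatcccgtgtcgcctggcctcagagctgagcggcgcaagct
Ddit4: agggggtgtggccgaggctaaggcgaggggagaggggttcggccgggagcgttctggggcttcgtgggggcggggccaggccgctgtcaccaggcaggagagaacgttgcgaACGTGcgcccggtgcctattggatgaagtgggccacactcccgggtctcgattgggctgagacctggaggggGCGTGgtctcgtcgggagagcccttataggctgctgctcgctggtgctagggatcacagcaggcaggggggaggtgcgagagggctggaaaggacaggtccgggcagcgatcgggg
The Bnip3 window held 4 matches, of which the pair from 99 to 94 bases before the start overlap as the palindrome CACGTG. The Ddit4 window held 1 match of each motif, the nearer one from 66 bases before the start. Adm (chr1:174179950-174180249, plus strand) and Apln (chrX:132091197-132091496, minus strand) held neither in these 300 bases. The start site used lies 16022 bases inside the annotated gene for Adm and 272 bases inside for Apln. For Bnip3 and Ddit4 it is at the annotated gene start. Other start sites of Adm and Apln were not searched. Among 33469 promoter windows of the same length, 19.3% held ACGTG, 29.7% held GCGTG and 41.6% held either. A match describes letters, not binding.

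The 390 libraries used held between 1202354 and 69774071 counts, with a median of 22555404. Over these libraries the median count was 423.5 for Bnip3, 180 for Adm, 316 for Ddit4 and 51700 for Ndrg1. Apln was at 0 in 19 of 80 liver libraries, where its median was 2 counts, and changes of Apln with exposure were not tested in liver. Levels are CPM, counts relative to library size after TMM scaling within the libraries of a tissue and compound, and they are not compared between genes because probes differ in efficiency. Tissue labels matched their markers in the 1,2-DCB controls: 5 heart muscle markers summed to 258553 to 410318 CPM in heart against at most 2.09 CPM in kidney, 9 hepatocyte markers to 452499 to 662588 CPM in liver, and 7 ovarian markers to 10958 to 17127 CPM in ovary. Of the lung epithelium list none was on the panel. In such pieces of whole tissue, fewer cells of a type and less RNA per cell cannot be told apart.

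In control rats, each gene had its own tissue order. For comparison across tissues the libraries of all tissues were scaled together, and levels in this paragraph are on that scale. Bnip3 was highest in kidney (54.2 ± 11.6 CPM, SD, n = 19), followed by heart (37.9 ± 6.01, n = 20), liver (20.5 ± 2.53, n = 20), ovary (10.3 ± 3.52, n = 20) and lung (4.95 ± 1.15, n = 18). Every neighbouring pair in this order was called (edgeR quasi-likelihood, largest adjusted p = 3.67e-06, for heart and kidney). On totals of single libraries, without this scaling, the place of liver reversed: Bnip3 was lower in liver than in lung by 1.45 and than in ovary by 2.87 on the log2 scale. That scaling multiplied liver values by 6.13 and those of the other tissues by 0.422 to 0.832.

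Ndrg1 was highest in kidney. In control kidney it averaged 103494 ± 23568 CPM (SD, n = 19) and took 12.9% of all counts, against 1778 ± 345 CPM in ovary, 1545 ± 232 in lung, 1432 ± 199 in heart and 301.5 ± 53.97 in liver. Kidney exceeded ovary, the next in order, by 5.85 ± 0.11 (log2 difference ± SE), with no overlap. Heart and lung did not differ past the threshold (edgeR quasi-likelihood, log2 difference -0.12 ± 0.09, adjusted p = 0.214) but did on library totals (-0.74 ± 0.08). The small difference between lung and ovary (-0.19 ± 0.09) was lost when counts were divided by each probe's common step (adjusted p = 0.123). Ndrg1 counts in the adjusted table that the authors deposited are all multiples of 10.

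The secreted peptides and Ddit4 ranked differently again. Ddit4 was highest in ovary (39.8 ± 17.1 CPM), then heart (17.9 ± 7.33), kidney (12.6 ± 4.35), lung (10.5 ± 4.29) and liver (2.69 ± 1.17). Its levels in kidney and lung did not differ past the threshold (edgeR quasi-likelihood, adjusted p = 0.173), but did with the animal as a replicate block (0.33 ± 0.12, adjusted p = 0.00957). On library totals the difference of heart from lung missed the threshold (edgeR, adjusted p = 0.428). Kidney minus lung had the opposite sign on that scale, at -0.26 ± 0.18, without a call (edgeR, adjusted p = 0.171). Adm had 12.3 ± 7.50 CPM in ovary and 11.9 ± 3.73 in lung, with a log2 difference of -0.01 ± 0.17 for lung minus ovary (edgeR quasi-likelihood, adjusted p = 0.955). It was lower in heart (6.46 ± 1.66) and kidney (6.33 ± 1.62), which did not differ from each other past the threshold (edgeR quasi-likelihood, adjusted p = 0.89), and lowest in liver (2.92 ± 1.38). Apln was highest in lung (36.8 ± 6.05 CPM), then ovary (17.05 ± 10.3), heart (12.9 ± 2.18), kidney (1.09 ± 0.46) and liver (0.28 ± 0.27). Its order of heart and ovary was not firm: the difference of -0.41 ± 0.18 missed the threshold with the animal as a replicate block (edgeR quasi-likelihood, adjusted p = 0.196) and in limma voom (adjusted p = 0.46).

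Of the 50 tissue pairs of the 5 genes, 46 were called at an adjusted p below 0.05. That share is read against all probes: 80.4% were called between heart and kidney, 83.3% for heart and liver, 82.1% for heart and lung, 83% for heart and ovary, 80.8% for kidney and liver, 85.7% for kidney and lung, 84.1% for kidney and ovary, 85.7% for liver and lung, 85.7% for liver and ovary, and 78.8% for lung and ovary. Most probes of the panel differed between any pair of tissues.

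**Figure D1:**
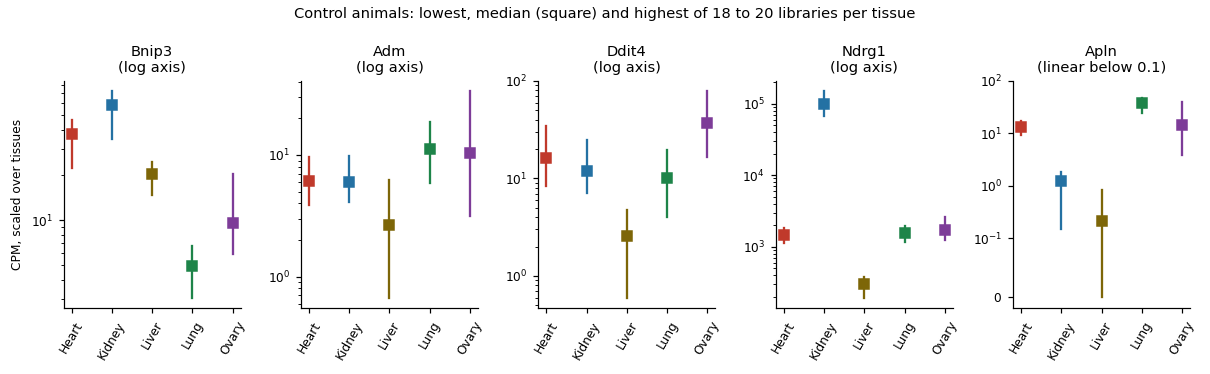
Level of each gene in control rats by tissue (CPM scaled over tissues, log axes, Apln linear below 0.1). Squares are medians and lines run from the lowest to the highest of 18 to 20 libraries. Ndrg1 in kidney stands apart from the other tissues. Apln in liver stands apart from heart, lung and ovary but overlaps kidney, and it reaches 0.

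At the top concentrations the calls of the 5 genes went both ways. Of 48 gene and tissue combinations tested, 5 were called higher and 10 lower, where called means an adjusted p below 0.05 over all probes of the comparison. In 1,2-DCB at 500 ppm, 2 of 5 genes were called in heart, where 12% of all probes were called, 0 of 5 in kidney (16.4%), 3 of 4 in liver (67.8%), 1 of 5 in lung (8.85%) and 1 of 5 in ovary (2.91%). In 1,4-DCB at 800 ppm, 3 of 5 were called in heart (6.86% of all probes), 1 of 5 in kidney (5.03%), 1 of 4 in liver (34.9%), 2 of 5 in lung (5.91%) and 1 of 5 in ovary (8.47%). These counts follow from how the genes were chosen. In 3 combinations every exposed rat lay above every control, and in 6 every exposed rat lay below. The share of all probes separated in this way was not determined, so these counts are not read as a trait of the 5 genes.

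**Figure D2:**
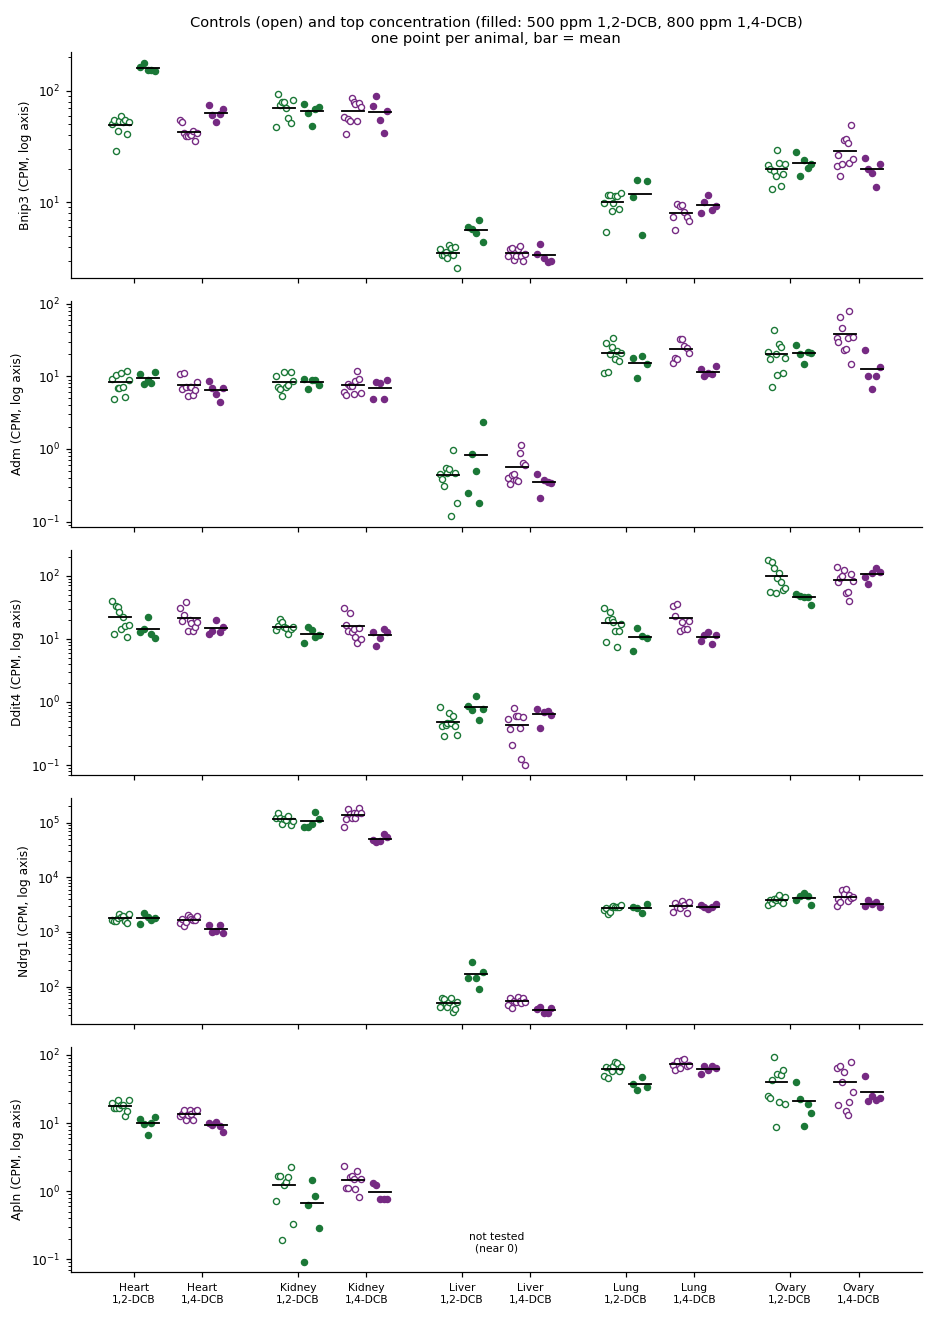
CPM of each gene in controls (open) and at the top concentration (filled), 1 point per rat, with bars at the means, on log axes. Bnip3 in 1,2-DCB heart and Ndrg1 in 1,2-DCB liver sit above all controls, and Ndrg1 in 1,4-DCB kidney sits below them.

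Bnip3 changed most in heart. In the hearts of 1,2-DCB controls it ranged from 28.6 to 59.97 CPM (median 52.8, n = 10), and the 5 rats at 500 ppm had 162.1, 179.4, 155.05, 152.8 and 152.2 CPM. All 5 lay above the highest control, at a log2 fold change of 1.70 ± 0.12 (SE). In hearts of the 1,4-DCB study, controls ran from 35.8 to 54.8 CPM (median 41.2, n = 10) and the rats at 800 ppm had 74.6, 60.7, 52.1, 62.3 and 68.6 CPM. There 4 of 5 rats exceeded every control, with a log2 fold change of 0.57 ± 0.09. These concentrations differ, so the values stand side by side without a comparison.

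Liver gave the other call for Bnip3, in 1,2-DCB. Controls had 2.59 to 4.16 CPM (median 3.46, n = 10), and the rats at 500 ppm had 6.01, 5.71, 5.34, 6.88 and 4.39 CPM. Every exposed rat lay above the controls, at a log2 fold change of 0.69 ± 0.12. In livers at 800 ppm of 1,4-DCB the values were 3.43, 4.21, 3.19, 2.94 and 2.998 CPM against 2.97 to 4.04 CPM in controls, a log2 fold change of -0.06 ± 0.10. Elsewhere the fold changes of Bnip3 lay between -0.54 ± 0.20 (1,4-DCB ovary) and 0.25 (lung, both compounds), without a call. In that ovary group the rats had 25.2, 20.1, 18.2, 13.6 and 21.96 CPM against 17.2 to 48.9 CPM in controls, and a call appeared when control F2 or exposed rat F601 was left out.

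Beside the change of Bnip3 in 1,2-DCB heart, summed markers of smooth muscle and fibroblasts ran from 849 to 1168 CPM at 500 ppm against 2183 to 3504 CPM in controls, with 4 of 9 markers called lower, none higher and a median log2 fold change of 0.11 over the 9. Summed heart muscle markers overlapped, at 301748 to 372012 CPM against 258553 to 410318. The part of either in the result was not tested. In 1,4-DCB heart the smooth muscle and fibroblast sums overlapped (1860 to 2030 against 1939 to 2884 CPM), with 1 marker called lower.

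Below the top, no call was made for Bnip3 in heart. The 5 lower concentrations of 1,2-DCB gave log2 fold changes from -0.26 ± 0.13 at 1 ppm to 0.12 ± 0.13 at 250 ppm, where the rats averaged 53.6 ± 4.15 CPM against 49.2 ± 9.07 in controls. Of 50 lower comparisons of Bnip3 none was called (edgeR quasi-likelihood), and 2 had an unadjusted p below 0.05. One was 1,2-DCB heart at 1 ppm and the other 1,4-DCB heart at 150 ppm, where the rats had 45.9, 51.1, 48.7, 61.04 and 57.2 CPM (0.30 ± 0.10, adjusted p = 0.472 by edgeR).

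**Figure D3:**
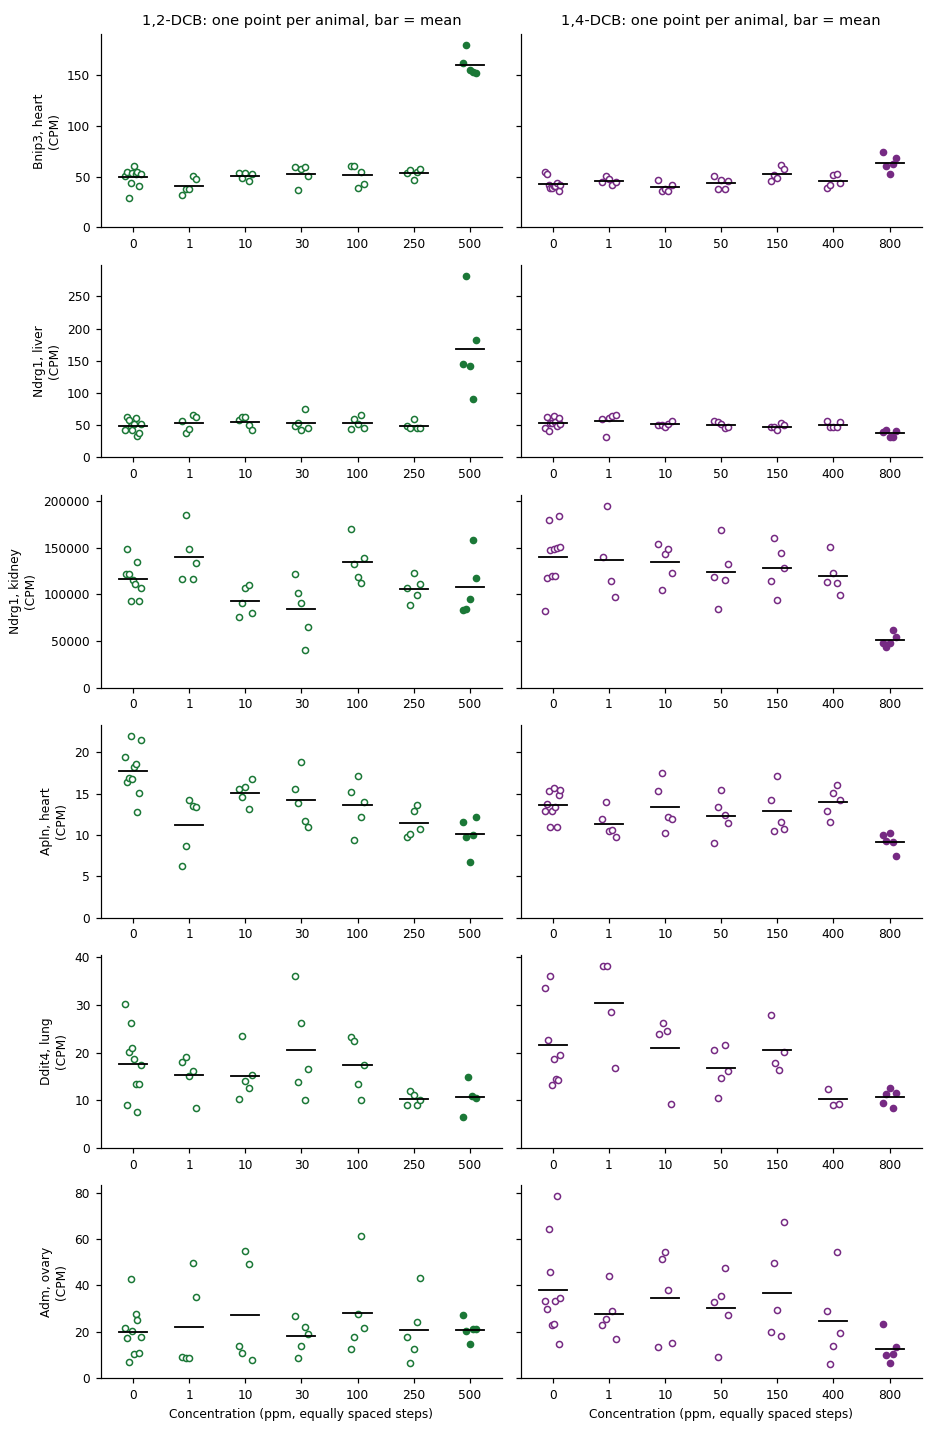
CPM per rat by concentration (equally spaced steps, linear axes from 0) for 6 gene and tissue combinations in each compound, with bars at group means and the top concentration filled. Group means of Bnip3 in 1,2-DCB heart lie between 41.05 and 53.6 CPM from 1 to 250 ppm and at 160 CPM at 500 ppm.

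Ndrg1 was called in liver in both compounds, higher in 1,2-DCB and lower in 1,4-DCB. In livers of 1,2-DCB controls it ran from 33.5 to 62.6 CPM (median 49.9, n = 10), and at 500 ppm the rats had 145.6, 282.4, 142.4, 91.1 and 182.5 CPM. All 5 lay above the controls, a log2 fold change of 1.78 ± 0.17. Markers of several cell types were called lower in these livers, where Ndrg1, Bnip3 and Ddit4 were called higher. Of all 2019 probes tested there, 707 were called higher and 661 lower (67.8%). Of the hepatocyte list 7 of 9 were lower and 1 higher, with overlapping sums (465390 to 582163 against 452499 to 662588 CPM). All 3 macrophage and monocyte markers were lower, summing to 21.5 to 30.96 against 41.7 to 61.6 CPM without overlap, as were 2 of 4 endothelial markers (17.9 to 23.6 against 27.4 to 35.4 CPM). Both red cell markers, 2 of 3 lymphocyte markers and 2 of 5 smooth muscle and fibroblast markers were lower too. The called share was above that of all probes in the hepatocyte (88.9%), macrophage and monocyte (100%) and red cell (100%) lists. It was below that share in the lymphocyte (66.7%), endothelial (50%) and smooth muscle and fibroblast (40%) lists. The part of these cells in the 3 changes was not tested. In livers of 1,4-DCB controls it ran from 40.7 to 64.6 CPM (median 53.1, n = 10), and at 800 ppm the rats had 38.8, 42.4, 32.1, 32.4 and 41.05 CPM. There 3 of 5 lay below every control, a log2 fold change of -0.53 ± 0.11.

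In kidney, where Ndrg1 is most abundant, 800 ppm of 1,4-DCB went with less than the lowest control in every rat. Controls ran from 82333 to 184334 CPM (median 148551, n = 10), and the exposed rats had 48366, 43937, 47479, 61611 and 54837 CPM, a log2 fold change of -1.45 ± 0.18. At 500 ppm of 1,2-DCB the kidney values of 83379, 84583, 95168, 159078 and 117463 CPM spread around controls of 92866 to 148511 CPM, at -0.11 ± 0.18. The 2 markers of kidney loop, distal tubule and collecting duct were not called in 1,4-DCB kidney and summed to 919 to 1054 CPM against 955 to 1425 CPM in controls. Those of the proximal tubule summed to 150.7 to 264 against 134.3 to 230 CPM.

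Heart gave the remaining call for Ndrg1. Hearts at 800 ppm of 1,4-DCB had 1338, 991, 1036, 1354 and 954 CPM against 1288 to 2092 CPM (median 1691, n = 10) in controls, with 3 of 5 rats below every control and a log2 fold change of -0.58 ± 0.11. In 1,2-DCB heart the change was 0.01 ± 0.11. In 1,4-DCB ovary Ndrg1 had a log2 fold change of -0.43 ± 0.15 without a call, and it was called there by DESeq2, with a filter at a mean of 20 CPM, and without control F1, F2, F6 or F10. In lung both compounds left it within 0.03 of controls.

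At lower concentrations Ndrg1 had 6 of 50 comparisons with an unadjusted p below 0.05 and none called (edgeR quasi-likelihood), of which 1 was higher and 5 were lower. The higher one was 1,2-DCB heart at 1 ppm (0.31 ± 0.11, adjusted p = 0.0798 by edgeR), which passed the threshold with the filter at 20 CPM (adjusted p = 0.0421) and without rat F103 (adjusted p = 0.0327). The largest was 1,2-DCB kidney at 30 ppm, where the rats had 121696, 101622, 90453, 40753 and 65541 CPM (-0.47 ± 0.18, adjusted p = 0.418 by edgeR). At 100 ppm its kidney mean was 134696 CPM against 116386 in controls.

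Ddit4, the brake on mTORC1, was called lower in 1,2-DCB ovary and 1,4-DCB lung and higher in 1,2-DCB liver. In ovary, 1,2-DCB controls ran from 53.2 to 179 CPM (median 85.7, n = 10) and the exposed rats had 51.9, 47.7, 46.7, 46.01 and 34.2 CPM. All 5 lay below the controls, at -1.12 ± 0.31 (log2 fold change ± SE). This call missed the threshold in limma voom (adjusted p = 0.0508) and without control F1, F2, F3 or F6 or any 1 of the 5 exposed rats, with values from -1.18 to -0.99. In ovaries at 800 ppm of 1,4-DCB the values of 96.6, 73.3, 111.6, 130.1 and 113.7 CPM lay within the controls (39.3 to 138.9 CPM), at 0.27 ± 0.29. Summed ovarian markers in the 1,2-DCB ovaries overlapped (7853 to 17419 against 10958 to 17127 CPM).

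In liver Ddit4 was scarce, with 3 counts in the lowest control library. Controls of 1,2-DCB had 0.284 to 0.819 CPM (median 0.446, n = 10) and the rats at 500 ppm had 0.855, 0.74, 1.25, 0.519 and 0.784 CPM. The log2 fold change was 0.77 ± 0.33, with 2 of 5 rats above every control, and the call was lost without any 1 of controls F2, F3, F8, F9 and F10 or exposed rats F601 and F603 (0.58 to 0.93 over all fits that leave out 1 animal). The same tissue at 800 ppm of 1,4-DCB gave 0.56 ± 0.34, without a call.

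In lung Ddit4 was called in 1,4-DCB. Its controls ran from 13.2 to 36.1 CPM (median 19.1, n = 8), and at 800 ppm the rats had 9.32, 11.3, 12.6, 8.39 and 11.5 CPM. No exposed rat reached a control, and the log2 fold change was -1.02 ± 0.26. Without rat F604 the adjusted p was 0.0507 (edgeR). With the libraries that the submitters did not use put back it was 0.125. At 500 ppm of 1,2-DCB 4 rats had 6.49, 14.98, 10.9 and 10.4 CPM against 7.46 to 30.3 CPM in controls, at -0.72 ± 0.31. In 1,4-DCB lung 2 of 3 neutrophil markers were called higher, their sum running from 580 to 1327 CPM against 377 to 515 in controls. The part of these cells in the result was not tested.

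The concentration next below the top also had lung values under the control means, in rats that are set against the same control lungs that entered the choice of the gene. At 400 ppm of 1,4-DCB, 3 rats had 12.4, 9.00 and 9.11 CPM, all below the controls, at -1.08 ± 0.32. At 250 ppm of 1,2-DCB the 5 rats had 8.94, 11.9, 11.2, 9.01 and 10.0 CPM, at -0.79 ± 0.29. Neither passed the threshold over all probes (edgeR quasi-likelihood, adjusted p = 0.427 and adjusted p = 0.762, unadjusted p = 0.00238 and p = 0.0101). With the libraries marked as not used included, the 400 ppm value was -1.50 ± 0.34 and called (edgeR, adjusted p = 0.00326). Both added 400 ppm libraries were set aside by the submitters as outliers, with 4.70 and 1.37 CPM of Ddit4 by library totals. At 1 ppm of 1,4-DCB, Ddit4 had log2 fold changes of 0.49 ± 0.22 in heart and 0.67 ± 0.29 in ovary with no call.

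Adm, the adrenomedullin precursor, was called lower in lung and ovary of 1,4-DCB and had no call in 1,2-DCB at the top with all animals included. In lung, controls had 15.3 to 32.5 CPM (median 22.6, n = 8) and the rats at 800 ppm had 12.5, 9.92, 10.9, 10.6 and 13.7 CPM. All 5 lay below the controls, at -1.02 ± 0.19. Summed endothelial markers in these lungs were 1276 to 1567 CPM against 1519 to 2069 in controls, with 1 of 4 called lower, and their part in the result was not tested. In 1,2-DCB lung the rats had 17.5, 9.36, 19.2 and 14.8 CPM against 10.9 to 33.3 CPM, at -0.45 ± 0.28.

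In ovary, 1,4-DCB controls of Adm ran widely, from 14.7 to 78.6 CPM (median 33.3, n = 10), and the rats at 800 ppm had 23.2, 9.98, 6.63, 10.2 and 13.5 CPM. Except for 1 rat, F601, they lay below every control, and the log2 fold change was -1.58 ± 0.46. The call was lost without control F7 or exposed rat F602, F603, F604 or F605 (-1.40 to -1.61). Summed ovarian follicle and corpus luteum markers were 14433 to 21712 CPM in these ovaries against 8597 to 15757 in controls, with 2 of 7 called higher, and their part was not tested. At 500 ppm of 1,2-DCB the ovary value was 0.06 ± 0.48. In heart and kidney Adm stayed between -0.18 and 0.20 in both compounds. In 1,2-DCB liver the log2 fold change was 0.87 ± 0.41 without a call. Rat F605 had 2.38 CPM where the other 4 had 0.181 to 0.853. A call, upward, appeared when exposed rat F601, F603 or F604 or control F7 was left out.

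At lower concentrations Adm in lung was called nowhere. In 1,2-DCB lung at 30 ppm the rats had 18.4, 11.6, 9.01, 8.14 and 10.4 CPM, of which 3 lay below every control (-0.84 ± 0.27, adjusted p = 0.542 by edgeR). In 1,4-DCB lung the log2 fold changes were -0.55 ± 0.20 at 1 ppm, -0.43 ± 0.20 at 10 ppm and -0.45 ± 0.20 at 150 ppm, each with an unadjusted p below 0.05 and an adjusted p between 0.968 and 0.999 (edgeR quasi-likelihood). They share the same 8 controls. In 1,2-DCB heart at 1 ppm Adm had 12.7, 28.4, 8.11, 7.27 and 6.68 CPM against 4.89 to 11.7 CPM in controls, a log2 fold change of 0.63 ± 0.24 (adjusted p = 0.12 by edgeR). Rats F101 and F102 lay above every control and the other 3 within them. A call appeared when any 1 of those 3 was left out, and none when F101 or F102 was.

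Apln was lower wherever it was called. In the hearts of 1,2-DCB controls it ran from 12.8 to 22.02 CPM (median 17.6, n = 10) and the rats at 500 ppm had 11.6, 9.78, 6.71, 10.1 and 12.2 CPM, at -0.82 ± 0.17. In 1,4-DCB heart, controls had 10.96 to 15.7 CPM (median 13.6, n = 10) and the rats at 800 ppm had 10.0, 9.24, 10.3, 9.11 and 7.41 CPM, at -0.57 ± 0.13. Both groups lay wholly below their controls. In 1,2-DCB lung the rats had 37.3, 30.2, 48.2 and 33.4 CPM against 45.2 to 79.02 CPM (median 65.7, n = 10), with 3 of 4 below every control and -0.76 ± 0.17. Beside this, summed smooth muscle and fibroblast markers in the 1,2-DCB lungs were 1183 to 1686 CPM against 2133 to 3854 in controls, without overlap and with 3 of 9 called lower, and their part in the result was not tested.

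Endothelial cells are a known source of apelin. Summed endothelial markers in 1,2-DCB heart were 388 to 464 CPM at the top against 397 to 668 in controls, and in 1,4-DCB heart 322 to 381 against 368 to 518, with 1 of 4 called lower in each. In 1,2-DCB lung they overlapped (1104 to 1733 against 982 to 1816 CPM), with none called. Their part in the change of Apln was not tested. The remaining top values of Apln were all negative, from -0.24 in 1,4-DCB lung to -0.91 in 1,2-DCB ovary, without a call. In ovary its controls spread from 8.71 to 93.5 CPM in 1,2-DCB and from 13.3 to 78.3 CPM in 1,4-DCB.

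Heart Apln gave the only call of the 5 genes below the top. At 1 ppm of 1,2-DCB the rats had 6.28, 8.68, 14.3, 13.6 and 13.5 CPM, a log2 fold change of -0.67 ± 0.17 (edgeR quasi-likelihood, adjusted p = 0.015), where 5.64% of all probes were called. The call rested on rats F101 and F102, which lay below every control: without F101 it was -0.52 (adjusted p = 0.2) and without F102 -0.59 (adjusted p = 0.113). A fit of only this group and its controls gave -0.67 (adjusted p = 0.186). At 10, 30 and 100 ppm no call was made. At 250 ppm the rats had 9.82, 10.2, 12.97, 13.6 and 10.8 CPM, at -0.63 ± 0.17 (edgeR, adjusted p = 0.25).

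**Figure D4:**
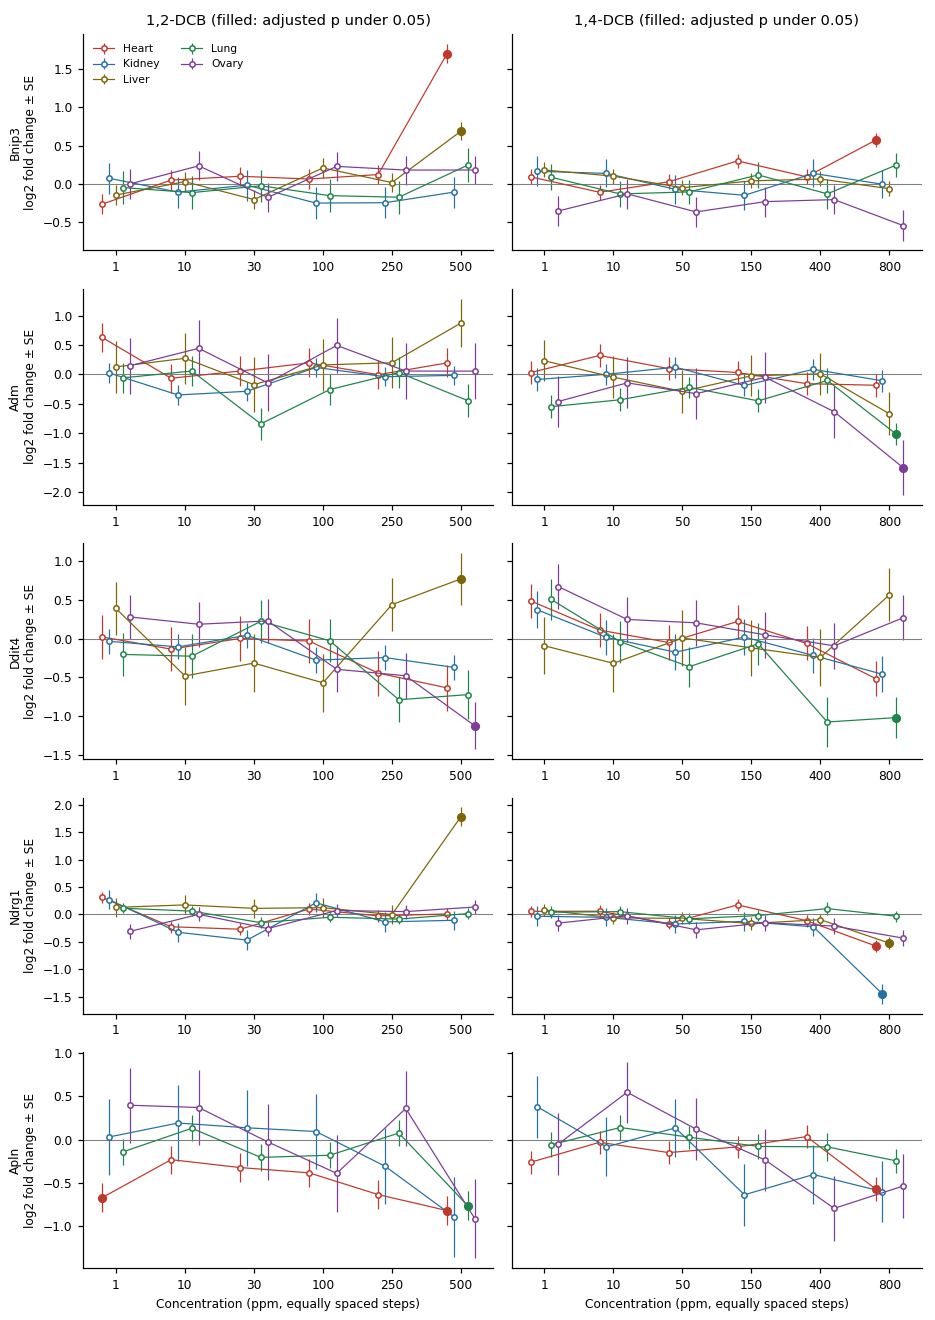
Log2 fold change against controls (± SE) of each gene at every concentration (equally spaced steps), by tissue and compound, with filled points for an adjusted p below 0.05. Most filled points are at the right end, and the exception is Apln in 1,2-DCB heart at 1 ppm.

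Over all lower concentrations, 1 of 240 comparisons of the 5 genes was called (edgeR quasi-likelihood), and 22 had an unadjusted p below 0.05. The share of all probes below that unadjusted level was not determined, here or for the other unadjusted counts. Of the 50 lower comparisons, 40 had no called probe at all (0%). Besides heart at 1 ppm, probes were called for 1,2-DCB in kidney at 10 ppm (0.381%) and 250 ppm (0.0846%), in liver at 10 ppm (0.0495%), 100 ppm (2.13%) and 250 ppm (24.8%), in lung at 30 ppm (0.0434%) and in ovary at 250 ppm (0.0435%). For 1,4-DCB they were called at 400 ppm in kidney (0.215%) and liver (6.44%). At 250 ppm of 1,2-DCB in liver none of the 4 genes tested was called.

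A straight trend over log2 of the concentration plus 1, from controls to the concentration next below the top, was called for none of 48 gene and tissue combinations (edgeR quasi-likelihood). An unadjusted p below 0.05 was reached by Ddit4 in 1,4-DCB lung, with a slope of -0.09 ± 0.03 per doubling (p = 0.01, adjusted p = 0.796), and by Apln in 1,2-DCB heart (-0.05 ± 0.02, p = 0.0128, adjusted p = 0.3). The same test called 22% of all probes in 1,2-DCB liver and 1.86% in 1,4-DCB liver. In 1,2-DCB it called 0.144% in heart, 0.0855% in kidney, 0.0441% in lung and 0% in ovary, and in 1,4-DCB 0.342% in heart, 0.0862% in kidney and 0% in lung and ovary. With the top concentration included, 8 trends were called, which repeat the values that chose the genes.

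The control rats of both compounds were compared because each compound was set against its own. None of 24 comparisons of the 5 genes was called (edgeR quasi-likelihood), where 0.368% of probes were called in heart, 0.0545% in liver, 0.596% in lung and 0% in kidney and ovary. An unadjusted p below 0.05 was reached in 5. As 1,2-DCB minus 1,4-DCB controls on the log2 scale, these were Adm in ovary (-0.87 ± 0.31, adjusted p = 0.389 by edgeR), Bnip3 in ovary (-0.48 ± 0.18), Ndrg1 in kidney (-0.35 ± 0.13), Bnip3 in lung (0.39 ± 0.15) and Apln in heart (0.25 ± 0.10). The Adm gap between control sets stands beside its log2 fold change of -1.58 at 800 ppm of 1,4-DCB.

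The compounds shared only the concentrations 1 and 10 ppm, and there the change under 1,2-DCB minus the change under 1,4-DCB was tested for 48 combinations. None was called (edgeR quasi-likelihood), and 2 had an unadjusted p below 0.05, both for Bnip3 at 1 ppm. In heart its difference was -0.36, with a 95% interval from -0.68 to -0.04 (adjusted p = 0.273). Among all probes 1.03% were called in heart at 1 ppm, 1.17% in heart at 10 ppm and 0% in the other tissues. The intervals do not show that the compounds act alike: they reached as far as -1.50 for Ddit4 in lung and 1.89 for Adm in ovary, both at 1 ppm. The narrowest was that of Ndrg1 in lung at 10 ppm.

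Other genes of the hypoxia response were counted beside the 5. The list held 34 such genes on the panel besides the 5, some with more than 1 probe. At 500 ppm of 1,2-DCB the called probes were 2 higher and 0 lower of 34 tested in heart, 4 and 1 of 35 in kidney, 13 and 7 of 26 in liver, 5 and 0 of 33 in lung and none of 35 in ovary. For 1,4-DCB at 800 ppm they were 1 and 1 of 33 in heart, 2 and 0 of 35 in kidney, 6 and 4 of 26 in liver, 4 and 0 of 33 in lung and 0 and 2 of 36 in ovary. For 1,2-DCB these were 5.88% of the list's probes against 12% of all probes in heart, 14.3% against 16.4% in kidney, 76.9% against 67.8% in liver, 15.2% against 8.85% in lung and 0% against 2.91% in ovary. For 1,4-DCB they were 6.06% against 6.86% in heart, 5.71% against 5.03% in kidney, 38.5% against 34.9% in liver, 12.1% against 5.91% in lung and 5.56% against 8.47% in ovary. The shares were not compared by a test. Median log2 fold changes of the list were between -0.14 and 0.31, against -0.03 to 0.03 over all probes.

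The largest fold change of the list, in 1,2-DCB kidney, belonged to Hmox1, heme oxygenase 1, which oxidative stress also induces. It was higher at 500 ppm of 1,2-DCB in heart (61.8 ± 11.8 to 198 ± 136.1 CPM, SD), kidney (27.9 ± 9.35 to 261 ± 500 CPM) and liver (39.6 ± 7.84 to 262 ± 308 CPM), and at 800 ppm of 1,4-DCB in kidney and liver. The SD among exposed rats was above their mean in 1,2-DCB kidney and liver and in 1,4-DCB kidney (23.7 ± 5.65 to 170 ± 320 CPM). In 1,2-DCB heart, where Bnip3 stood apart, the only other call was Ero1l, an oxidase of protein folding (0.32 ± 0.06). Glycolytic Pgam1 was called higher in 1,4-DCB heart (0.35 ± 0.07) and in both livers. In 1,2-DCB kidney Igfbp1 (0.77 ± 0.21), Vegfa (0.27 ± 0.07) and Gapdh (0.20 ± 0.07) were also higher, and 1 list probe was lower. In 1,4-DCB kidney Bhlhe40 was higher (0.44 ± 0.13).

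Liver at 500 ppm of 1,2-DCB held the most. The glycolytic enzyme Aldoa was higher with both probes (1.95 ± 0.15 and 1.79 ± 0.09) and Pgam1 by 1.05 ± 0.11. Ndrg1 and Bnip3 were higher in these same livers, in which 67.8% of all probes were called. In lung the transcriptional repressor Bhlhe40 was called higher in both compounds (0.43 ± 0.12 in 1,2-DCB and 0.84 ± 0.15 in 1,4-DCB). Aldoa was also higher in lung in both compounds. P4ha2 was higher in 1,2-DCB lung (0.42 ± 0.13), and Anxa2 (0.41 ± 0.10) and Gapdh (0.28 ± 0.07) in 1,4-DCB lung. In 1,4-DCB ovary the collagen-modifying enzyme Loxl2 (-1.17 ± 0.28) and Anxa2 (-0.61 ± 0.20) were lower, as was Adm. In 1,4-DCB liver the secreted binding protein Igfbp1 was lower by 2.15 ± 0.53 on the log2 scale and Gapdh was higher by 0.76 ± 0.08.

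**Figure D5:**
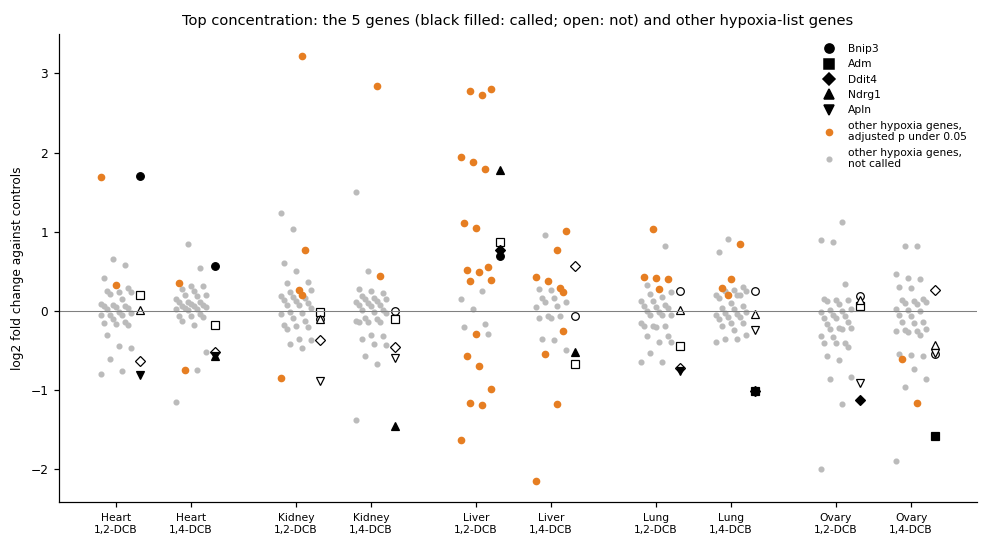
Log2 fold change at the top concentration for the 5 genes (black shapes, filled where called) and the other hypoxia-list probes (orange where called, grey where not) in each tissue and compound. Bnip3 in 1,2-DCB heart lies level with the highest list probe there, and the highest list probe of all is Hmox1 in 1,2-DCB kidney (3.22).

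Smaller lists of partners were counted in the same comparisons. Of 11 mitophagy and autophagy probes, 2 were called in 1,2-DCB heart, both higher: Sqstm1, the autophagy receptor p62, and Map1lc3a. That is 18.2% of the list against 12% of all probes. In 1,4-DCB heart none was, against 6.86% of all probes. In the other 1,2-DCB tissues, lung had 3 higher (27.3% against 8.85%) and kidney 2 higher and 1 lower (27.3% against 16.4%). Liver had 5 higher and 2 lower (63.6% against 67.8%), and ovary none (against 2.91%). In 1,4-DCB, liver had 1 higher and 1 lower (18.2% against 34.9%). Kidney (9.09% against 5.03%) and ovary (9.09% against 8.47%) had 1 lower each, and lung none (against 5.91%). Of 13 probes for the mTORC1 brake and the ATF4 stress response in 1,2-DCB liver, where Ddit4 was higher, 7 were called higher and 2 lower, and in 1,4-DCB liver 5 higher and 1 lower. These are 69.2% and 46.2% of the list, against 67.8% and 34.9% of all probes in the same livers. Where Ddit4 was called lower, none of 15 probes of this list was called in 1,2-DCB ovary (against 2.91%). In 1,4-DCB lung none of 14 was (against 5.91%). In the remaining tissues its called share ran from 0% to 13.3%. Of 7 glucocorticoid targets none was called in ovary in either compound, where Ddit4 was lower in 1,2-DCB. In those ovaries 2.91% of all probes were called in 1,2-DCB and 8.47% in 1,4-DCB. In lung Cebpd was called lower in 1,4-DCB (14.3% of the list against 5.91% of all probes) and none in 1,2-DCB (against 8.85%). In 1,2-DCB liver, where Ddit4 was higher, 2 were higher and 4 lower (85.7% against 67.8%). In 1,4-DCB liver 4 were lower (57.1% against 34.9%). Heart had 2 higher and 1 lower in 1,2-DCB (42.9% against 12%) and 1 lower in 1,4-DCB (14.3% against 6.86%). Kidney had 2 higher in 1,2-DCB (28.6% against 16.4%) and 1 higher in 1,4-DCB (14.3% against 5.03%). Of the receptor components for adrenomedullin and apelin only Ramp2 was on the panel, and it was called in no comparison at the top. Of 3 probes listed for the NDRG family and MYC, 2 were higher and 1 lower in 1,2-DCB liver (100% against 67.8%). In lung 2 were higher in 1,2-DCB (66.7% against 8.85%) and 1 in 1,4-DCB (33.3% against 5.91%). In 1,4-DCB ovary 1 was lower (33.3% against 8.47%), and elsewhere none was called.

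Across the libraries of heart, kidney, lung and ovary the 5 genes were only weakly correlated with each other. Values were log2 CPM less the mean of the controls of the same tissue and compound, so all points of a tissue share controls. Over these 310 libraries Pearson correlations between pairs of the 5 lay between -0.21 (Adm and Ddit4) and 0.21 (Ddit4 and Apln). Liver was left out for every pair because Apln was not tested there, so the value says nothing of liver. The probes most like Bnip3 over 390 libraries were Lgmn (0.46), Hadhb (0.44) and Idh2 (0.41), and those most like Ndrg1 were Hspb1 (0.52), LOC102549726 (0.48) and Mdm2 (0.48). Ddit4 was most like Cebpb (0.41 and 0.40, from 2 probes) and Cebpd (0.38), and Adm like Senp6 (0.40), Tiparp (0.38) and Trib1 (0.36). Apln over 310 libraries was most like Col4a2 (0.43), Prdx2 (0.42) and Col3a1 (0.37). These are descriptions over libraries that share exposure groups and animals.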

How the data were processed

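RNA of 5 tissues was measured with TempO-Seq, in which paired probes bound side by side on a transcript are ligated, amplified and counted, on the S1500+ rat panel of 2654 probes. The authors deposited read counts per probe that they had adjusted for attenuation, that is, multiplied back where a probe's signal had been diluted. Reads were aligned with Bowtie 1.3.1, per the submitters' processing notes, with settings not given in the sources used here. Of 399 libraries, 9 that the submitters marked as not used were left out. Groups came from the labels.

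The deposited counts were tested per tissue and compound in edgeR 4.0.16 (R 4.3.3) with filterByExpr, TMM scaling and a robust quasi-likelihood fit of all concentrations, and p-values were Benjamini-Hochberg adjusted over all probes tested. SE is the absolute fold change over the square root of F. The tests were tested on simulated data. Replicates are single animals, so within a tissue p-values measure the spread between these animals, and comparisons within a compound share its controls. Control tissue pairs came from a joint fit of all control libraries with the compound as a covariate. That fit treats tissues of the same rat as independent, and the animal as a replicate block was an alternative. Without molecular identifiers, totals show counting error only.

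The 5 genes and the gene lists were chosen with earlier results of these data known. Other named genes were the 3 probes most correlated with each gene and, from the hypoxia list, up to 4 called genes per comparison with the largest fold change among those averaging 20 CPM or more in controls or exposed rats. Animal numbers in the labels tie the tissues of 1 rat: for control tissue pairs the mean correlation of deviations was 0.09 to 0.30 within an animal and -0.02 to -0.00 between animals. Alternatives were DESeq2 1.42.0, limma 3.58.1 voom, other scalings and filters, counts divided by each probe's step, the not-used libraries, and each animal left out.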

Additional observations from a re-analysis of the deposited data

Results flagged for a closer look

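Of 96 groups of 4 to 10 libraries, 2 held a library far from the others of its group, and chance flags about 1 group in 20. In 1,2-DCB liver controls, Adm was 0.966 CPM in rat F7 and 0.118 to 0.547 in the other 9. In 1,4-DCB ovary at 800 ppm, Apln was 49.5 CPM in rat F601 and 21.1 to 24.96 in the other 4.

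For some genes every exposed rat lay above the control mean in one tissue and below it in another, and the difference was not tested. At 800 ppm of 1,4-DCB the log2 fold change of Bnip3 in heart (0.57) exceeded that in ovary (-0.54) by 1.12, and that in lung (0.25) exceeded ovary by 0.79. At 500 ppm of 1,2-DCB the log2 fold change of Ddit4 in liver (0.77) exceeded that in heart (-0.64) by 1.41, in kidney (-0.37) by 1.14, in lung (-0.72) by 1.49 and in ovary (-1.12) by 1.89.

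In 3 libraries that the submitters did not use, Bnip3 lay above the controls by library totals. In 1,2-DCB lung at 500 ppm rat F601 had 15.4 CPM (5 of 325496 counts), against at most 13.4 in controls. In 1,4-DCB lung rat F102 at 1 ppm had 130 CPM (1 of 7685 counts) and rat F402 at 150 ppm had 22.7 CPM (2 of 88204 counts), against at most 9.82 in controls. Each rests on 5 counts or fewer.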

How the results depend on the processing

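Of the 16 called changes, 15 are at the top concentrations that chose the genes, so refits of them say nothing of stability. Without 1 animal, 13 to 17 changes were called at the top, 0 to 3 below it, 46 to 54 in the hypoxia list and 0 trends. Below the top, where the report has 1 call, 0 were called when each exposed group was fitted with only its controls, and 2 with the not-used libraries included. In the hypoxia list the number of calls went from 52 to 31 with a filter at a mean of 20 CPM, which tests fewer probes. Including the top concentration gave 8 called trends, where the report has 0. On library totals Bnip3 reversed between control tissues, at -1.45 for liver minus lung and -2.87 for liver minus ovary. With the animal as a replicate block Apln in heart minus ovary was -0.24 (edgeR quasi-likelihood, adjusted p = 0.196) and lost its call, Ddit4 in kidney minus lung became a call (0.33, adjusted p = 0.00957), and the block changed no other control tissue call. Leaving out animals in the compound difference (0 calls throughout) and in the hypoxia list, and voom for that list, were alternatives chosen after seeing the data. The cause of these shifts was not tested. Low counts limit Apln in liver and kidney and Adm and Ddit4 in liver.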
